A study of Mus musculus with 6 samples.

Results

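The 9 genes Plcg1, Stim1, Ppp3ca, Ppp3cb, Nfatc1, Nfatc3, Prkcq, Malt1 and Bcl10 carry calcium, calcineurin and BCL10-MALT1 signals below the T cell antigen receptor. They were taken by symbol from a table of 23725 genes, where all 9 were found, and 6 of them had enough counts to be tested. The RNA came from lymph node regulatory T cells (Tregs), a CD4 lineage that holds immune responses in check, of C57Bl/6 mice. All mice had been immunised with MOG (myelin oligodendrocyte glycoprotein), which sits on the outer face of myelin. 3 libraries came from MOG KO mice, which lack MOG in the whole animal, and 3 from wild-type (WT) mice, in which MOG is a self protein. Both genotypes received the immunisation. Each library was made from 500 cells with 15 cycles of PCR and no molecular identifiers. The age of the mice, how the Tregs were isolated and whether replicates are separate mice are not stated in the labels. A p-value here therefore reflects library-to-library spread, part of which may be technical.

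When a T cell receptor is engaged, the phospholipase PLCG1 cleaves a membrane lipid into IP3 and diacylglycerol. IP3 empties the calcium store of the endoplasmic reticulum, the sensor STIM1 then opens ORAI channels in the cell membrane, and calcium bound to calmodulin switches on the phosphatase calcineurin, which frees NFAT transcription factors to enter the nucleus. Diacylglycerol activates the kinase PKC-theta, which triggers assembly of a complex that holds BCL10 and MALT1, and this complex turns on NF-kB. Both branches are known to be needed for Treg development, and Foxp3 binds DNA together with NFAT.

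The libraries held 4327491, 4361315 and 3450623 gene counts in MOG KO and 2717969, 4472549 and 3527942 in WT (replicates 1, 2 and 3, the order used throughout). Levels are in RPM, the counts scaled to the library's total, and a gene is called present at 10 RPM or more. Mog itself had 1 count in all, in WT replicate 1, so it does not check the genotype labels. WT replicate 3 stood apart, with 2701 genes present, where the others had 3265 to 4440. Foxp3, the Treg lineage factor, was at 8.22 RPM in it and at 476, 444 and 326 RPM in MOG KO and 690.2 and 400 RPM in the remaining WT libraries. Fold changes without this library are therefore given beside the others. Summed over 4 Treg markers, levels were 2108 to 2974 RPM in MOG KO and 2084 to 3141 RPM in WT. Summed over the 5 T cell markers in the table they were 1646 to 2282 RPM in MOG KO and 1591 to 2179.6 RPM in WT. These sums join markers that differ in WT replicate 3. There Ctla4 was at 74.3 RPM (449.9 to 612 RPM elsewhere), Cd4 at 169.5 RPM (419 to 722 RPM) and Cd3g at 1.42 RPM (177 to 272 RPM). Ikzf2 and Cd28 were highest there, at 1294 and 1035 RPM, and Il2ra, Cd3d and Cd3e lay within the range of the other libraries. Both CD8 markers had 0 counts, and 0 of 5 dendritic and 0 of 4 NK cell markers were present in any library. The 6 B cell markers summed to 0 to 130 RPM in MOG KO and 2.58 to 207 RPM in WT. Of these, Cd79a and Blnk had 0 counts, Cd79b was present in replicate 2 of each genotype (129.5 RPM in MOG KO, 205 RPM in WT) and Ms4a1 in WT replicate 3 (87.3 RPM). The 5 myeloid markers in the table summed to 5.78 to 193 RPM in MOG KO and 5.81 to 19.1 RPM in WT, and Cd68, at 188 RPM in MOG KO replicate 2, was the one present. The 3 erythroid markers in the table summed to 4.85 to 12.8 RPM in MOG KO and 3.58 to 21.7 RPM in WT. The 5 stromal and endothelial markers summed to 28.0 to 461 RPM in MOG KO and 1.98 to 91.6 RPM in WT. Of these, Pecam1 was the one present. Pdpn and Ccl19 had 0 counts, Cdh5 reached 0.29 RPM and Col1a1 2.75 RPM. The part of these markers in the results below was not tested. In bulk libraries, fewer cells with a transcript and less transcript per cell cannot be told apart.

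Several of the 9 genes have close relatives, so it was asked whether a read of 100 bases could belong to more than 1 gene. Among all 100-base windows of the GENCODE M21 transcripts (GRCm38), 0 windows of Ppp3ca, Ppp3cb, Nfatc1, Stim1 and Bcl10 occurred in a transcript of another gene. The share was 0.0912% for Malt1, 0.664% for Plcg1, 1.02% for Nfatc3 and 2.01% for Prkcq. Within each pair, the most alike coding windows are shown for Ppp3ca with Ppp3cb, which code for the calcineurin A-alpha and A-beta subunits, and for Stim1 with its relative Stim2. Capitals mark the bases that differ within a pair, and positions count from 1 at the start codon. The calcineurin windows (positions 1168 to 1267 of Ppp3ca and 1198 to 1297 of Ppp3cb) differed at 13 bases and the STIM windows (1019 to 1118 of Stim1 and 1031 to 1130 of Stim2) at 22. The closest window of Ppp3ca with Ppp3cc, the remaining calcineurin A gene, differed at 8 bases (positions 952 to 1051 of Ppp3ca and 940 to 1039 of Ppp3cc).
Ppp3ca: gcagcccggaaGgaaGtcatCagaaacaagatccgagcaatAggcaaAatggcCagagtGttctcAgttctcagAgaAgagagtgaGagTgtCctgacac
Ppp3cb: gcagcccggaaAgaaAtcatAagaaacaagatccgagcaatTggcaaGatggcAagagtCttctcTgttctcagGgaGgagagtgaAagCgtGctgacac
Stim1: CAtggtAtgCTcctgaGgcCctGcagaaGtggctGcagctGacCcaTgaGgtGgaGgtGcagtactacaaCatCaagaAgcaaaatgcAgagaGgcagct
Stim2: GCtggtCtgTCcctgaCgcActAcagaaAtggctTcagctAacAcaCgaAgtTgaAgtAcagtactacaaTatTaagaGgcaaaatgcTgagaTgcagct

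Across the 9 genes, 0 of 9 separated the genotypes without overlap, and so 0 of the 6 that were tested. Among all 4088 tested genes 10.5% did (5.97% higher and 4.57% lower in MOG KO). Nfatc3 alone was present in all 6 libraries, and the other 8 were present in some libraries and near 0 in others of the same genotype. Of the 54 values, 32 were at 10 RPM or more (15 of 27 or 55.6% in MOG KO and 17 of 27 or 63% in WT, 77.8% in WT without replicate 3), 21 were under 3 RPM and 1 lay between. The libraries held 6, 4 and 5 of the 9 genes in MOG KO and 7, 7 and 3 in WT, and over all genes 3528, 3460 and 3265 were present in MOG KO and 3923, 4440 and 2701 in WT.

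**Figure D1:**
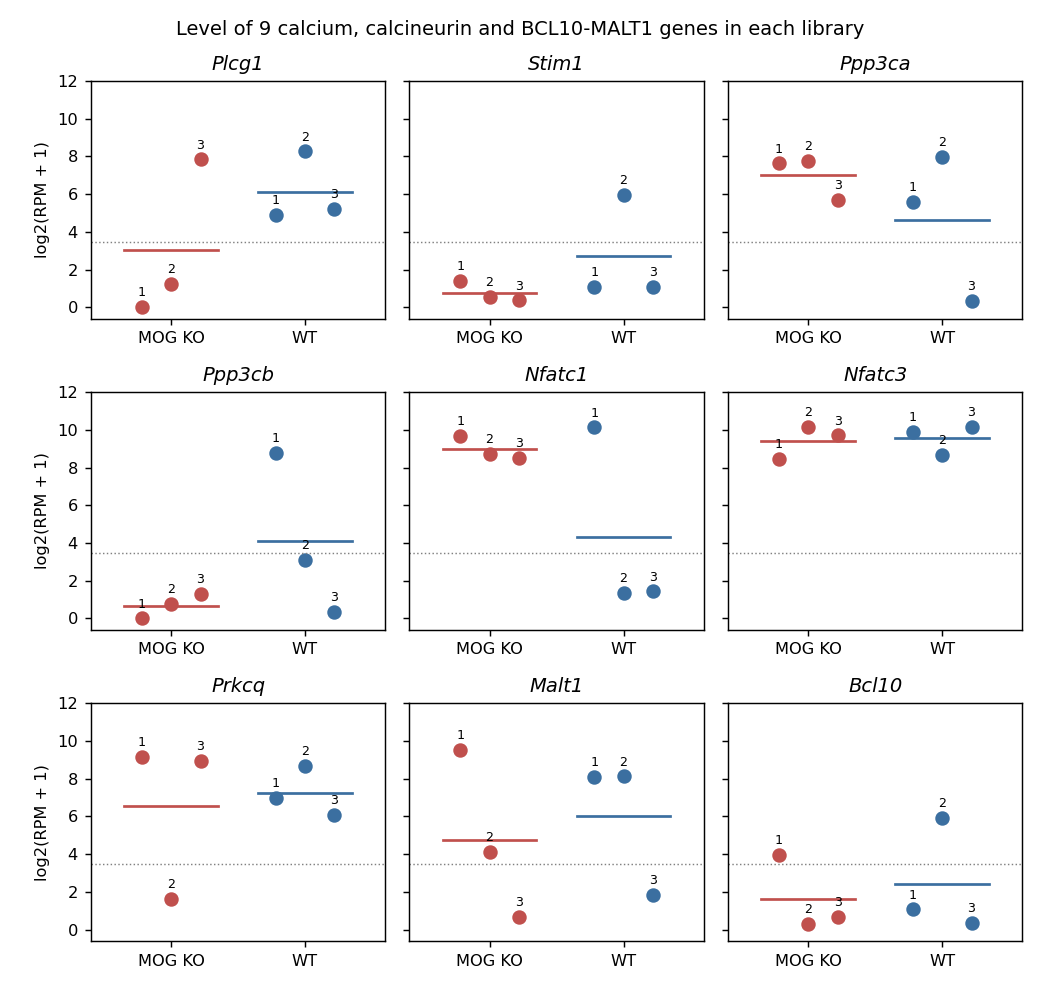
Level of each of the 9 genes, as log2(RPM + 1), in the 3 MOG KO libraries (left, red) and the 3 WT libraries (right, blue); numbers are replicates, horizontal bars are the means of the 3 log2 values and the dotted line is 10 RPM. Nfatc3 is above the line in all 6 libraries, Stim1 in WT replicate 2 alone and Ppp3cb in WT replicate 1 alone. The bars of Prkcq and Malt1 are lower in MOG KO, while their fold changes from mean counts are positive.

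In the edgeR fit over 4088 genes, 0 of the 6 tested genes passed an adjusted p of 0.05, as did 0 of the 4088 (0.0%). At an unadjusted p under 0.05 there were 0 of the 6, against 209 of the 4088 (5.11%). DESeq2 called 0 of the 5 for which it gave an adjusted p and limma-voom 0 of 6. DESeq2 called 745 of the 4648 genes for which it gave an adjusted p (16.0%), and limma-voom 0 of 4088 (0.0%, and 260 or 6.36% at an unadjusted p under 0.05). Among the 6, 4 log2 fold changes (MOG KO minus WT) were positive and 2 negative, with a median of 0.44 against 0.06 over all tested genes. Only those kept by the filter on low counts enter these counts. Without that filter edgeR called 0 of the 9 genes and 0 of 12317 in all (0.0%), and at an unadjusted p under 0.05 there were 0 of the 9, against 1134 genes (9.21%).

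At the head of the cascade, Plcg1 (Entrez 18803, chromosome 2, 160731300 to 160775760) had 0, 1.38 and 228 RPM in MOG KO and 28.7, 307 and 35.7 RPM in WT. It was present in 1 MOG KO library and all 3 WT libraries, and MOG KO replicate 3 lay inside the WT range. The 0 counts in MOG KO replicate 1 allow up to 0.693 RPM. Its log2 fold change was -0.66 ± 2.71 (SE, n = 3 per group, 95% interval -6.97 to 5.66, adjusted p = 1 in edgeR), and -1.12 without WT replicate 3. Without MOG KO replicate 3 it was -7.34 (adjusted p = 0.606 in edgeR) and without WT replicate 2 it was 1.14. Exons of Plcg1 overlap 627 bases of genes on the other strand, Zhx3 among those in the table, and the strand setting of the counting is not given.

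Stim1 (Entrez 20866, chromosome 7, 102267806 to 102437319), the calcium sensor of the store, was near 0 in 5 of 6 libraries. It had 1.62, 0.459 and 0.29 RPM in MOG KO and 1.1, 61.7 and 1.13 RPM in WT, so a single WT library held nearly all its counts, 276 of them. It was removed by the filter. Without that filter edgeR gave -4.76 ± 4.18 (adjusted p = 0.582), -5.32 without WT replicate 3 and -0.5 without WT replicate 2. Its relative Stim2, which responds to smaller losses of store calcium, was present in 2 libraries of each genotype (269, 1.15 and 419.9 RPM in MOG KO, 6.99, 195 and 442 RPM in WT).

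The channel gene Orai1, the pore that STIM1 opens, had 0, 191 and 0.29 RPM in MOG KO and 0.368, 106 and 0.567 RPM in WT. It was present in replicate 2 of each genotype and in no other library, and the filter removed it. In WT replicate 2 Stim1 and Orai1 were present together, and in MOG KO replicate 2 Orai1 was read with Stim1 at 0.459 RPM and Stim2 at 1.15 RPM. MOG KO replicate 1, WT replicate 1 and WT replicate 3 had 0 of the 3 ORAI genes present.

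Calcineurin joins a catalytic A subunit to a regulatory B subunit. Ppp3ca (Entrez 19055, chromosome 3, 136670124 to 136937727), the A-alpha gene, had 197, 214 and 50.7 RPM in MOG KO and 47.1, 249.5 and 0.283 RPM in WT. It was present in every library except WT replicate 3, with a log2 fold change of 0.65 ± 2.19 (95% interval -4.44 to 5.74, adjusted p = 1 in edgeR) and 0.1 without that library. Ppp3cb (Entrez 19056, chromosome 14, 20499364 to 20546573), the A-beta gene, had 0, 0.688 and 1.45 RPM in MOG KO and 442, 7.6 and 0.283 RPM in WT. It had 0, 3 and 5 counts in MOG KO and 1201, 34 and 1 in WT, so WT replicate 1 held nearly all of them. Without the filter, which removed it, edgeR gave -7.74 ± 4.25 (95% interval -16.07 to 0.58, adjusted p = 0.453), -8.33 without WT replicate 3 and -2.44 without WT replicate 1.

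The remaining catalytic gene, Ppp3cc, which is best known from testis, had 68.6, 71.5 and 512 RPM in MOG KO and 1.47, 60.8 and 0.85 RPM in WT. Its groups did not overlap, and its log2 fold change of 3.42 ± 2.41 did not pass (adjusted p = 1 in edgeR, 2.83 without WT replicate 3, 7.44 without WT replicate 2 and 1.81 without MOG KO replicate 3). Taken as a family, 2 of the 3 catalytic genes were present in each library except WT replicate 3, which had 0. Per kilobase of exon, their summed level was 42.7, 45.5 and 177 RPM per kb in MOG KO and 55.4, 46.2 and 0.345 RPM per kb in WT. MOG KO replicates and WT replicate 2 paired Ppp3ca with Ppp3cc, and WT replicate 1 paired Ppp3ca with Ppp3cb.

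The B subunit gene Ppp3r1 had 3.7, 0.459 and 2.03 RPM in MOG KO and 4.05, 349 and 677 RPM in WT. All 3 MOG KO libraries were below all 3 WT libraries, though WT replicate 1 was close to the MOG KO range. The log2 fold change was -7.5 ± 2.63 (95% interval -13.63 to -1.38, adjusted p = 0.713 in edgeR), and -6.36 without WT replicate 3 (adjusted p = 0.709 in edgeR). DESeq2 put it past the threshold (adjusted p = 0.00668). Ppp3r1 shares 462 exon bases on the same strand with Wdr92, and 11.6% of its 100-base windows occur in that gene.

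The calmodulin genes code for the protein that, bound to calcium, switches on calcineurin. Of them, Calm2 had 315, 169.9 and 502 RPM in MOG KO and 118, 154 and 402 RPM in WT. It was present in all 6 libraries with overlapping groups, and its log2 fold change was 0.44 ± 1.34 (95% interval -2.66 to 3.53, 1.29 without WT replicate 3, adjusted p = 1 in edgeR). Calm3 had 0.462, 94.7 and 139 RPM in MOG KO and 241, 104 and 128 RPM in WT (-1.04 ± 2.08, -1.13 without WT replicate 3, adjusted p = 1 in edgeR). It was near 0 in MOG KO replicate 1 and present in the other 5 libraries.

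Nfatc3 (Entrez 18021, chromosome 8, 106058840 to 106130537) was the most steadily read of the 9 genes. It had 350.3, 1127 and 835 RPM in MOG KO and 942, 406 and 1147 RPM in WT, and the highest and lowest libraries of each genotype were of similar size. Its log2 fold change was -0.19 ± 0.61 (95% interval -1.61 to 1.24, adjusted p = 1 in edgeR), and 0.22 without WT replicate 3. Nfatc2, the other NFAT factor abundant in T cells, had 386, 299 and 163 RPM in MOG KO and 618, 474 and 359 RPM in WT (-0.83 ± 0.91, 95% interval -2.92 to 1.25, -0.92 without WT replicate 3, adjusted p = 1 in edgeR). These intervals still hold differences of 2-fold and more in either direction for both genes, down to a log2 fold change of -2.92 for Nfatc2.

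Nfatc1 (Entrez 18018, chromosome 18, 80606205 to 80713071), the NFAT gene that is itself induced by NFAT, split the WT libraries. It had 812, 428 and 363 RPM in MOG KO and 1117, 1.57 and 1.7 RPM in WT, so it was present in 3 MOG KO libraries and 1 WT library, and that WT library was above all 3 MOG KO libraries. The log2 fold change was 0.49 ± 2.02 (95% interval -4.21 to 5.19, adjusted p = 1 in edgeR) and -0.05 without WT replicate 3. Leaving out WT replicate 1 instead gave 8.26 (adjusted p = 0.722 in edgeR). Per kilobase, the 3 NFAT genes together had 175, 182 and 135 RPM per kb in MOG KO and 288, 79.7 and 132 RPM per kb in WT, and at least 2 of the 3 were present in every library.

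On the diacylglycerol branch, Prkcq (Entrez 18761, chromosome 2, 11172108 to 11301222), which codes for PKC-theta, had 562, 2.06 and 491 RPM in MOG KO and 124, 407 and 66 RPM in WT. It was present everywhere except MOG KO replicate 2, and the other MOG KO libraries were above all 3 WT libraries. The log2 fold change was 0.8 ± 1.85 (95% interval -3.51 to 5.11, adjusted p = 1 in edgeR), 0.43 without WT replicate 3 and 1.41 without MOG KO replicate 2.

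Malt1 (Entrez 240354, chromosome 18, 65430938 to 65479067), the protease of the complex, had 741, 16.3 and 0.58 RPM in MOG KO and 276, 278 and 2.55 RPM in WT. Its values spanned 3 orders of size in MOG KO and enclosed the WT values. The log2 fold change was 0.39 ± 2.45 (95% interval -5.33 to 6.1, adjusted p = 1 in edgeR), -0.11 without WT replicate 3 and -4.39 without MOG KO replicate 1. Bcl10 (Entrez 12042, chromosome 3, 145922804 to 145934356), the adaptor that brings MALT1 into the complex, had 14.6, 0.229 and 0.58 RPM in MOG KO and 1.1, 58.8 and 0.283 RPM in WT. It was present in 1 library of each genotype and was removed by the filter. Without that filter edgeR gave -2.02 ± 3.71 (adjusted p = 0.916), -2.6 without WT replicate 3 and 2.86 without WT replicate 2.

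Bcl10 and Malt1 were present together in 2 libraries, MOG KO replicate 1 and WT replicate 2. Those were also the only libraries with Bcl10 at 10 RPM or more. MOG KO replicate 3 and WT replicate 3 had neither present, while their Prkcq levels were 491 RPM in MOG KO replicate 3 and 66 RPM in WT replicate 3.

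**Figure D2:**
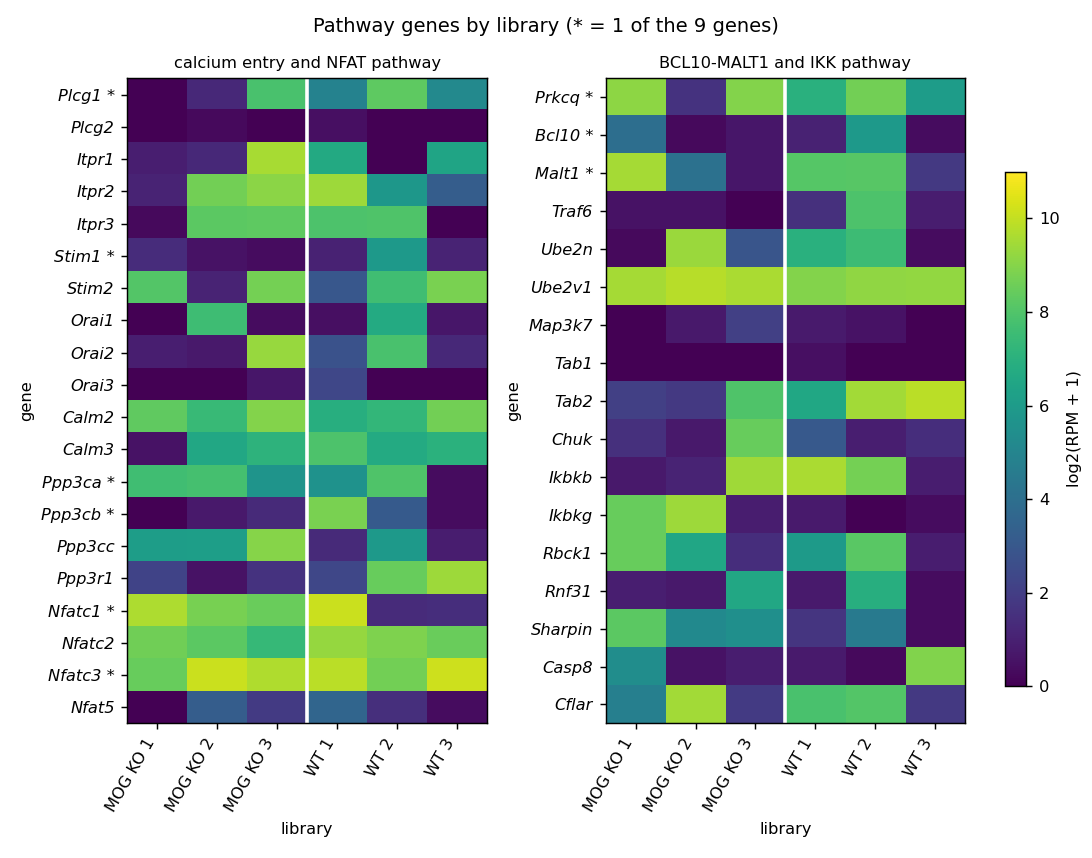
Level as log2(RPM + 1), by colour, of 20 genes of calcium entry and NFAT (left) and 17 genes of the BCL10-MALT1 and IKK pathway (right) in 6 libraries, MOG KO to the left of the white line and WT to its right; asterisks mark the 9 genes. Calm2, Nfatc2, Nfatc3 and Ube2v1 are bright in all 6 columns, and most other rows change between bright and dark within a genotype.

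Levels of different genes were compared per kilobase of exon. In order of the mean over 6 libraries, Nfatc3 had 68.3 ± 29.7 RPM per kb (SD, n = 6), Nfatc1 60.8 ± 59.4, Prkcq 38.9 ± 33.9, Plcg1 12.8 ± 16.9, Ppp3ca 12.7 ± 10.6, Malt1 12.1 ± 16, Ppp3cb 8.55 ± 20.4, Bcl10 2.76 ± 5.11 and Stim1 1.07 ± 2.39 RPM per kb. Each neighbour in this order differed from the next by less than the larger SD of the pair. Nfatc3 was above Ppp3ca, Ppp3cb, Stim1 and Bcl10 in every library. Nfatc1 was above it in MOG KO replicate 1 and WT replicate 1, and Prkcq in MOG KO replicate 1 and WT replicate 2. Malt1 was also above it in MOG KO replicate 1 and Plcg1 in WT replicate 2. Exon lengths are the union over all GENCODE M21 transcripts, 18 kb for Malt1, and a gene read mostly from a short transcript is understated.

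The spread between libraries of 1 genotype, as the SD of log2(RPM + 1), was 0.84 for Nfatc3 and 2.03 to 4.08 for the other 8, with a median of 3.08 for the 9 genes and 3.16 for all tested genes. Among the 200 tested genes nearest to each in mean level, the median SD was 0.46 for Nfatc3, 2.78 for Nfatc1 and 3.53 for Malt1. Of those neighbours, 84.0% were steadier than Nfatc3, 89.5% steadier than Nfatc1 and 75.0% steadier than Malt1. The share was 77.5% for Prkcq, 69.5% for Ppp3cb, 44.5% for Bcl10, 36.5% for Ppp3ca, 30.5% for Plcg1 and 25.5% for Stim1.

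**Figure D3:**
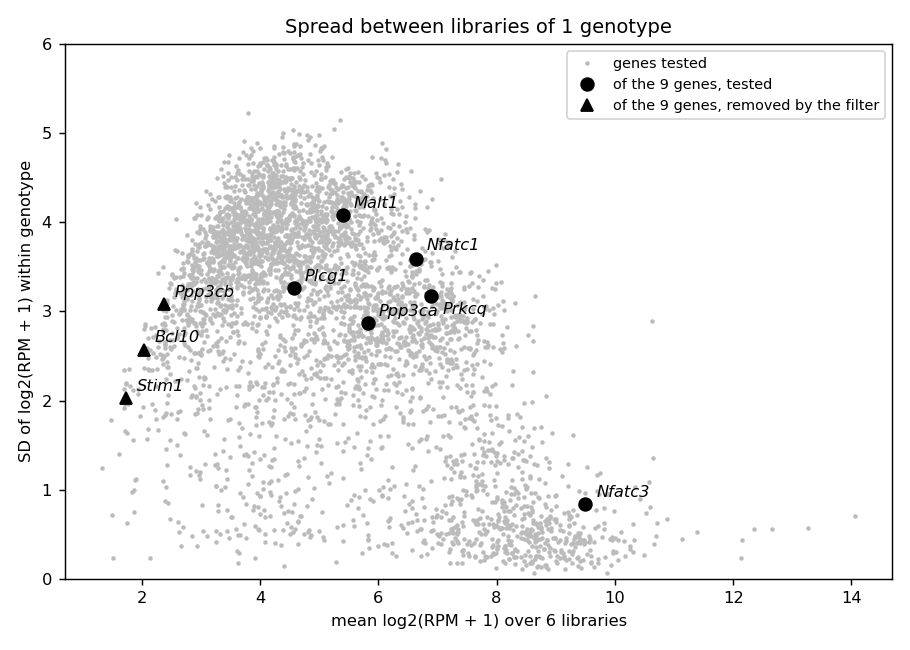
SD of log2(RPM + 1) within genotype against the mean over 6 libraries for the 4088 tested genes (grey) and the 9 genes (black circles tested, black triangles removed by the filter). Nfatc3 lies in the steady group at high mean, and Malt1, Nfatc1, Plcg1, Prkcq and Ppp3ca lie among the many genes with an SD of 2.87 or more.

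**Figure D4:**
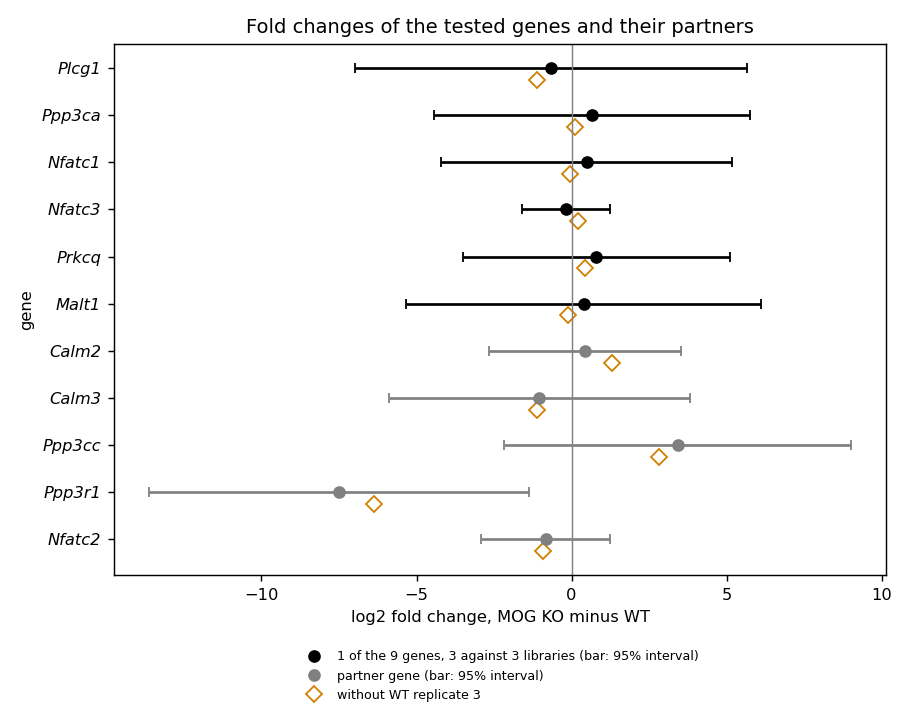
Log2 fold change, MOG KO minus WT, with 95% intervals from edgeR for the 6 tested genes (black) and 5 partner genes (grey); open diamonds are the values without WT replicate 3. The interval of Ppp3r1 lies below 0 before adjustment over all genes, and those of the other 10 genes span 0.

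The pathway of the 9 genes was read from lists chosen by function. Those of calcium entry and NFAT (6 of 20 genes), BCL10-MALT1 and IKK (3 of 17) and MALT1 substrates (1 of 8) include some of the 9. Where these were tested, they enter the counts and medians below. Of 15 tested genes of calcium entry and NFAT, 0 passed in edgeR, 8 were positive and 7 negative, with a median of 0.32 against 0.06 over all tested genes. At an unadjusted p under 0.05 there was 1, Ppp3r1, which DESeq2 called and limma-voom did not. Itpr1, a receptor that releases store calcium on IP3, had 0.924, 1.38 and 744 RPM in MOG KO and 101, 0 and 85.3 RPM in WT (1.94 ± 3.03, and 2.29 without WT replicate 3). Itpr2, its relative, had 1.16, 405 and 543 RPM in MOG KO and 662, 55.7 and 8.5 RPM in WT (0.41 ± 2.15, and -0.17 without WT replicate 3). Each library of each genotype except MOG KO replicate 1 had at least 1 of the 3 IP3 receptor genes present. The channel gene Orai2 had 0.924, 0.688 and 630.3 RPM in MOG KO and 5.89, 227 and 1.42 RPM in WT (1.49 ± 2.91, and 0.87 without WT replicate 3).

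Of 13 tested brakes on calcium and NFAT, 0 passed in edgeR, DESeq2 and limma-voom (0 at an unadjusted p under 0.05 in edgeR), 4 were positive and 9 negative (median -0.23). Gsk3b, a kinase that sends NFAT out of the nucleus, had 14.3, 1.38 and 5.51 RPM in MOG KO and 166, 28.4 and 38 RPM in WT. Its groups did not overlap, and its log2 fold change was -3.51 ± 2.06 (adjusted p = 1 in edgeR, -3.76 without WT replicate 3 and -2.32 without WT replicate 1). Atp2b1, a calcium pump of the cell membrane, also did not overlap (278, 14.9 and 246 RPM in MOG KO, 285, 565 and 387 RPM in WT, -1.27 ± 1.42, -1.22 without WT replicate 3 and -0.71 without MOG KO replicate 2). Atp2a3, the pump that refills the store, was read in all libraries (513, 746 and 293 RPM in MOG KO, 974, 849 and 486 RPM in WT, -0.61 ± 0.54, 95% interval -1.88 to 0.65, and -0.78 without WT replicate 3).

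Of 9 tested genes of the BCL10-MALT1 and IKK pathway, 0 passed in edgeR and limma-voom (0 at an unadjusted p under 0.05 in edgeR), 7 were positive and 2 negative (median 0.47). Ube2v1, a partner in building ubiquitin chains, was present in all libraries at 733, 890.3 and 776 RPM in MOG KO and 489.7, 575 and 589 RPM in WT. Its groups did not overlap, and its log2 fold change of 0.47 ± 0.43 (95% interval -0.53 to 1.48, 0.62 without WT replicate 3, adjusted p = 1 in edgeR) did not pass. Ube2v1 exons share 1673 bases with another gene on the same strand. Sharpin, a part of the linear ubiquitin ligase, had 295, 36.7 and 43.5 RPM in MOG KO and 2.21, 21.5 and 0.283 RPM in WT (3.94 ± 2.35, 3.43 without WT replicate 3, 6.6 without WT replicate 2 and 2.42 without MOG KO replicate 1). Tab2, an adaptor of the kinase TAK1, had 3.24, 2.52 and 251 RPM in MOG KO and 92.7, 702 and 938 RPM in WT (-2.82 ± 2, -2.19 without WT replicate 3 and -7.74 without MOG KO replicate 3). DESeq2 called Ikbkg, the regulatory IKK subunit, which the filter of the edgeR fit removed, with 2 of 6 libraries at 10 RPM or more (352, 672 and 0.869 RPM in MOG KO, 0.736, 0 and 0.283 RPM in WT).

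Among substrates cut by MALT1, 0 of 5 tested passed in edgeR and limma-voom, 2 were positive and 3 negative (median -0.36), and 1 had an unadjusted p under 0.05. That gene was Relb, an NF-kB subunit, at 0.231, 1.38 and 0.58 RPM in MOG KO and 378, 211 and 456 RPM in WT (-8.9 ± 2.29, -8.56 without WT replicate 3, adjusted p = 0.602 in edgeR and 0.00116 in DESeq2). Cyld, a deubiquitinase, was present in all libraries (205, 484 and 563 RPM in MOG KO, 800.2, 111 and 40 RPM in WT, 0.4 ± 1.3, and -0.11 without WT replicate 3). Tnfaip3, which codes for the NF-kB inhibitor A20, had 0.693, 10.1 and 570 RPM in MOG KO and 774, 185 and 1.42 RPM in WT (-0.69 ± 2.51, and -1.31 without WT replicate 3).

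Of all tested genes 17.2% were present in all 6 libraries, and of all genes present in at least 1 library 8.9% were. Of 11 genes that activate PLCG1 or act on diacylglycerol, 6 were present in all 6 libraries. Of the 10 tested, 0 passed in edgeR and limma-voom (0 at an unadjusted p under 0.05 in edgeR). Of them 4 were positive and 6 negative (median -0.11), and 0 separated the genotypes without overlap, against 10.5% of all tested genes. Among tested genes of the other lists it was 2 of 15 for calcium entry and NFAT and 2 of 13 for the brakes. It was 2 of 9 for BCL10-MALT1 and IKK, 1 of 5 for MALT1 substrates and 0 of 4 for the genes NFAT drives. Lcp2, the SLP-76 adaptor, had 614, 386 and 926 RPM in MOG KO and 162, 491 and 520.4 RPM in WT (0.64 ± 0.74, and 1.0 without WT replicate 3). Dgka, a kinase that removes diacylglycerol, had 182, 808 and 21.2 RPM in MOG KO and 876, 623 and 675 RPM in WT (-1.16 ± 1.12, -1.11 without WT replicate 3, -2.95 without MOG KO replicate 2 and -0.58 without MOG KO replicate 3). Rasgrp1, which carries the diacylglycerol signal to Ras, had 776, 444 and 1065 RPM in MOG KO and 812, 14.3 and 2.27 RPM in WT (1.45 ± 1.71, 0.89 without WT replicate 3 and 6.49 without WT replicate 1).

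Of all 23725 genes, 7909 were present in at least 1 library. Of 16 genes that NFAT is known to drive in T cells, 8 were present in no library, and 4 of them had 0 counts throughout. Of the 4 tested, 0 passed in edgeR, DESeq2 and limma-voom (0 at an unadjusted p under 0.05 in edgeR), 3 were positive and 1 negative (median 0.62). Il2ra, the interleukin 2 receptor chain, had 777, 849 and 371 RPM in MOG KO and 654, 739 and 708 RPM in WT (-0.14 ± 0.48, 95% interval -1.26 to 0.97, and -0.03 without WT replicate 3). Ctla4, the inhibitory receptor of Tregs, had 537, 518 and 502 RPM in MOG KO and 612, 449.9 and 74.3 RPM in WT (0.45 ± 0.89, and -0.01 without WT replicate 3). Irf4, a factor of effector Tregs, had 382, 768 and 2.03 RPM in MOG KO and 2.58, 587 and 1.98 RPM in WT (0.99 ± 2.44, and 0.44 without WT replicate 3).

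Other genes with like profiles over the 6 libraries were found for each of the 9 by Pearson's r of log2(RPM + 1). It is a description only, across libraries that differ in depth and genotype. The nearest gene to Stim1 was Ptpn6 (r = 0.995), high in WT replicate 2 alone (142 RPM, against 2.03 to 5.08 RPM in MOG KO and 3.12 to 5.52 RPM in the other WT libraries). The nearest to Nfatc1 was Fgfr1op2 (r = 0.994), to Nfatc3 Coro1a (0.992), to Ppp3cb Otud5 (0.989), to Malt1 Wbp11 (0.989) and to Ppp3ca Gm20605 (0.985). For Plcg1 it was Med4 (0.976), for Bcl10 Wdr33 (0.975) and for Prkcq Snx6 (0.974). Likeness of this size was common, with 3 to 29 tested genes over r = 0.95 for each of the 9. The pattern of present and absent libraries was shared by 703 other tested genes for Nfatc3, 246 for Ppp3ca, 123 for Malt1 and 13 each for Ppp3cb and Stim1.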

How the data were processed

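Per the labels' protocols, RNA from 500 Tregs per library was copied with the SMARTer V3 kit, amplified by 15 PCR cycles and read as single reads of 100 bases. The authors deposited 2 tables, raw exon counts per gene and RPM. Each deposited RPM value matched its count divided by the library total, within 1e-06. Per the submitters' processing notes, STAR 2.3.1, R 3.2.2 and build mm10 were used. How reads were assigned to genes, with which gene models, strand setting and treatment of multi-mapping reads, is not given in the sources used here.

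The test was edgeR 4.0.16 (R 4.3.3), fitted to counts of all genes. Genes were kept by filterByExpr (4088 of 23725, 17.2%), scaled by TMM and fitted by robust quasi-likelihood with genotype alone, and p-values were adjusted by Benjamini-Hochberg over all tested genes. The SE is the absolute log2 fold change over the square root of F, and 95% intervals use the moderated degrees of freedom. The fold change compares mean counts, so its sign can differ from that of mean log2 values, as for Prkcq and Malt1. The limit for 0 counts is 3 counts, and it covers counting error only. DESeq2 1.42.0 and limma-voom (limma 3.58.1) were alternatives. Coordinates, exon lengths and transcript sequences are those of GENCODE M21 (GRCm38, the assembly of mm10). The promoter table given was not used.

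The 9 genes and the lists were chosen with earlier results of these data known. Named genes are the 9, the partners Orai1, Calm2, Calm3, Ppp3cc, Ppp3r1 and Nfatc2, Mog and Foxp3, and from each list those past the threshold or else the 3 of smallest p that are not already named as members or partners. For each of the 9, the gene of highest Pearson's r is named. Stim2, Ikbkg and Wdr92 were named after their values or annotation were seen. Results for 2 other genes of these lists are not reported here, and list counts leave them out.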

Additional observations from a re-analysis of the deposited data

How the results depend on the processing

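The count of 0 genes past the threshold held in edgeR with DESeq2 size factors, without a filter, with 50 counts in 3 libraries, with a replicate block and without each library in turn, and in limma-voom. DESeq2 called 745 of the 4648 genes for which it gave an adjusted p (16.0%). How many genes of each list had one was not counted, so its calls in the lists cannot be set against this share. Of calcium entry and NFAT it called 1 gene (Ppp3r1), and of the BCL10-MALT1 and IKK pathway 1 (Ikbkg). It called 1 of the MALT1 substrates (Relb) and 1 of the PLCG1 branch (Themis). Among the 9 genes it called 0 of the 5 with an adjusted p. Of these calls Ikbkg and Themis were outside the edgeR test, and Themis rested on WT replicate 3 alone, at 17.3 RPM. Deviations of same-numbered libraries had correlations of -0.0213, -0.000684 and -0.0179. With a median SD within genotype of 3.16 over tested genes, a shared batch could be missed, so this does not settle whether the numbers mark pairs. The labels do not state a pairing. The replicate block left 0 genes past the threshold and turned Malt1 to -1.78, Bcl10 to 0.23 and Orai2 to -2.57. Limma-voom turned Nfatc3 to 0.16, Prkcq to -1.33, Malt1 to -1.61, Orai2 to -0.85 and Itpr2 to -0.29, and the cause was not tested. Leaving out each library in turn gave log2 fold changes of -7.34 to 1.14 for Plcg1, -0.06 to 8.26 for Nfatc1, -0.58 to 0.22 for Nfatc3, -4.39 to 1.01 for Malt1 and -5.54 to 2.86 for Bcl10 (without a filter). The partners ranged from -0.04 to 1.29 for Calm2 and -0.37 to 1.03 for Foxp3. Among list genes the range was -5.82 to 2.51 for Itpr1, -6.47 to 5.79 for Orai2, -0.21 to 3.29 for Itpr2, -0.11 to 2.44 for Cyld, -5.83 to 1.04 for Tnfaip3, -0.01 to 0.97 for Ctla4, -0.03 to 7.33 for Irf4 and -0.38 to 0.16 for Il2ra. Ppp3ca (0.1 to 2.71), Prkcq (0.37 to 1.83), Ppp3cb (-8.63 to -2.44) and Stim1 (-5.69 to -0.5), the last 2 without a filter, kept their sign in these fits, and adjusted p over the alternatives of the 9 genes in which it was given was 0.48 to 1. The median spread of the 9 genes fell to 2.09 with a pseudocount of 10 RPM, against 3.08 with 1 RPM. Present values made up 55.6% in MOG KO and 63.0% in WT, 55.6% and 66.7% at 3 RPM, and 48.1% and 59.3% at 30 RPM. The values without a filter for Ppp3cb, Stim1 and Bcl10, and their alternatives, were added after seeing the data. The level that 0 counts still allow was lowest in WT replicate 2, at 0.671 RPM, and highest in WT replicate 1, at 1.1 RPM (counting error only).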
